A study of Mus musculus with 12 samples.

Results

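The endoplasmic reticulum (ER) chaperone and unfolded protein response genes are 36 mouse genes that fold, check, import and dispose of proteins in the ER, with the sensors that adjust this capacity. The members were chosen by their gene symbols and known roles, at a time when the fold changes of all 5 comparison tables used here were already known, so every count of members below is a description and not independent evidence of a direction. Of the 36 genes, 35 had a row in all 5 tables, which together list 16399 gene symbols, and Derl3 is not analysed here. All 35 carried an adjusted p in every table, and their mean normalized counts ran from 57.2 to 15158 in aPD-1 v IgG of the authors' deposited tables, so none was lost to a filter on low counts.

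Proteins that enter the ER are held by the HSP70 chaperone Hspa5 (BiP), by lectin chaperones that read their sugar chains, and by isomerases that form their disulfide bonds. Proteins that fail to fold are threaded back into the cytosol and destroyed by the proteasome, a route called ER-associated degradation. When unfolded proteins accumulate, the sensors Atf6, Ern1 (IRE1-alpha) and Eif2ak3 (PERK) start the unfolded protein response: Atf6 is cut to release a transcription factor, Ern1 splices the Xbp1 mRNA so that it encodes one, and Eif2ak3 slows translation and favours that of Atf4. In tumours this response is known for supporting cells with a heavy secretory load.

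RNA came from pieces of MC38 tumours (MC38 is a colon carcinoma line of the mouse), labelled with the strain C57BL/6 albino; the fraction of 40 to 100 µm was embedded in collagen at 2.8 mg/mL in a microfluidic culture chip and treated for 6 days. The 12 samples formed 4 groups of 3: aPD-1, an antibody (clone RMP1-14) against the T cell inhibitory receptor PD-1; aPD-1+CD8, the same antibody with an antibody against CD8, the co-receptor of cytotoxic T cells; IFNg, the interferon-gamma protein; and IgG, a control antibody (clone 2A3). The dose was 10 µg/mL for each antibody and 100 ng/mL for the cytokine, with no antibody named for IFNg cultures. All groups share the tumour line, the matrix and the chip, and the labels tie no sample to a tumour, an animal or a well of its own; a p-value therefore speaks of variation among the deposited samples, possibly technical. Whether CD8-positive cells were lost with that antibody is not stated. The values are those of the authors' own DESeq2 comparisons: a mean normalized count over the 6 libraries compared, and a log2 fold change, written as X v Y for X over Y, with its standard error (SE). The tables hold 0 columns of single samples, so a value for each culture is not given. In its place each group's level was worked out from the mean count and the fold change of the same table; it is called the implied level, counts reads per gene and not per length, and has no replicate error of its own. Since the deposited fold changes appear shrunken toward 0, an implied level is not a measured group mean, and a pair of them understates the gap between the groups.

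Added over all genes of a table, the mean counts came to between 10292941 and 11590748. Epithelial and lymphocyte markers were near 0: the 5 listed carcinoma markers (keratins, Epcam, Cdh1) summed to implied levels of 6.83 in aPD-1 and 10.8 in IgG cultures, and the 4 listed T and NK cell markers to 2.11 in aPD-1 and 2.16 in IgG cultures. The carcinoma marker Krt19, at a mean count of 3.68, was called lower in aPD-1 v IgG, at -1.07 ± 0.38 in the authors' deposited table. The libraries were made by exome capture, and a count near 0 does not show that a cell type was absent. Several fibroblast marker genes were plentiful and moved with the treatment, as given beside the results. Others had low mean counts in aPD-1 v IgG, 13.5 for Col1a2 and 1.55 for Lum.

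Promoter sequence shows what several members share. The ER stress element is the site through which Atf6, together with the factor NF-Y, is known to activate chaperone genes; it was searched as CCAAT, then 9 bases of any kind, then CCACG, on both strands, in RefSeq promoters of build GRCm38.p6 that run from 250 bases before the start of a gene to 50 after it. Of the 28 members with a promoter in that table, 8 held an exact match (28.6%), against 37 of all 27025 genes (0.137%). The members were chosen for known roles, and the element is known from chaperone genes. A high share was thus likely beforehand and is a description, not a finding about the members. All of these exact matches are printed, also those of Canx and Dnajc3, which were called changed in no comparison. Each is shown with up to 10 bases on either side, 5′ to 3′ on the strand that carries the element, with the element in capitals.

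Hspa5 (chr2:34772015-34772053, plus strand): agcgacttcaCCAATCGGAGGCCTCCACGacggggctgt
Calr (chr8:84847065-84847103, plus strand): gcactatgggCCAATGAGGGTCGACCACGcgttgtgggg
Hsp90b1, nearer the start (chr10:86705523-86705561, plus strand): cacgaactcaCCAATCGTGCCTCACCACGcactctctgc
Hsp90b1, farther from the start (chr10:86705628-86705666, minus strand): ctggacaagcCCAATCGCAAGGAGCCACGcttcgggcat
Pdia6 (chr12:17266481-17266519, plus strand): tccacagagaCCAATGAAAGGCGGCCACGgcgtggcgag
Syvn1 (chr19:6046522-6046560, plus strand): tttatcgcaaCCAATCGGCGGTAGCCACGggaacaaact
Creld2 (chr15:88819510-88819548, minus strand): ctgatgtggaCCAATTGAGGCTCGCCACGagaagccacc
Dnajc3 (chr14:118937817-118937855, plus strand): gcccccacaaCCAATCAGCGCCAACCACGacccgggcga
Canx (chr11:50325790-50325828, minus strand): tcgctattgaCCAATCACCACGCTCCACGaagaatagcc

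The element began 65 bases before the start in Hspa5 and 44 in Syvn1, and the farthest lay 212 bases before the start, in Hsp90b1, which holds 2 exact elements. A form with 1 mismatch in its last 5 bases was present in 6 of the 28 members (21.4%) against 275 of all 27025 genes (1.02%); these were Pdia3, Pdia4, Derl2, Sel1l, Herpud1 and, beside its exact elements, Hsp90b1. The related ER stress element II, searched as ATTGG, 1 base of any kind and CCACG, was found in Herpud1 and Dnajb11, 2 of 28 members (7.14%) against 12 genes in all (0.0444%). This motif and those that follow were added after the promoters were read, so their shares are descriptions as well. The core of the Xbp1 site, TGACGTG, was present in Hspa5 alone among the 28 (3.57%) against 2.22% of all genes, and does not overlap the ER stress element there. A site for Atf4 and C/EBP factors, searched as TGATG, any base, then AA, was present in Herpud1 alone (3.57%) against 4.51% of all genes. The ER stress element II and the Atf4 and C/EBP site of Herpud1, one of the members that will be seen to fall, are shown in the same way. So are the mismatch forms of the isomerases Pdia3 and Pdia4. The mismatch forms of Herpud1, Derl2 and Hsp90b1 are not printed, nor is that of Sel1l, a member that fell like Herpud1.

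Herpud1, ER stress element II (chr8:94386367-94386397, plus strand): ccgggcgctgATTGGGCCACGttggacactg
Herpud1, site for Atf4 and C/EBP (chr8:94386307-94386334, minus strand): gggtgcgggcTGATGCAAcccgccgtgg
Pdia3, 1 mismatch (chr2:121413863-121413901, plus strand): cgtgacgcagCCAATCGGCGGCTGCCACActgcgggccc
Pdia4, 1 mismatch (chr6:47813592-47813630, plus strand): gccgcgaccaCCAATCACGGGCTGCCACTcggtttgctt

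A match is a run of letters and does not show that a factor binds there. Members not in the promoter table were Atf6, Manf, Hyou1, Derl1, Sec61a1, Sil1 and Ssr2. The 250 bases before the start of Hspa5 (chr2:34771840-34772089, plus strand) are given whole as the best known promoter of this response, with the TGACGTG core and the ER stress element in capitals.

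Hspa5: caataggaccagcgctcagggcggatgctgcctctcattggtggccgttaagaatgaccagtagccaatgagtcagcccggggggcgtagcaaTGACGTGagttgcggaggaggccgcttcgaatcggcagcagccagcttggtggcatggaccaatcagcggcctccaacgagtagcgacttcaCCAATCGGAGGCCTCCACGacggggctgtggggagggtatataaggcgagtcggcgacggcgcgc

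**Figure D1:**
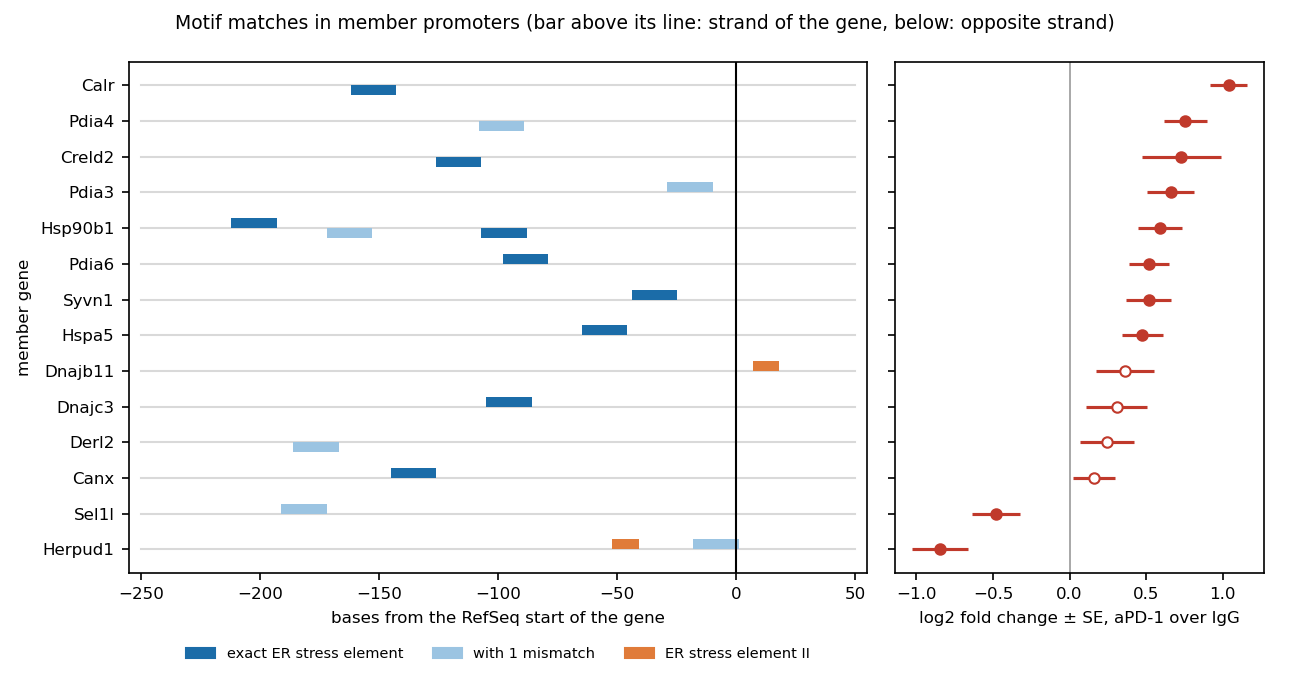
Left, position in bases from the RefSeq start of each member (x axis) of the exact ER stress element, its form with 1 mismatch and ER stress element II; a bar above the line is on the strand of the gene, below it on the opposite strand. Right, log2 fold change ± SE of aPD-1 over IgG in the authors' deposited table, filled where the adjusted p was under 0.05. Of the 8 members with an exact element 6 are filled on the higher side, where 8.5% of all genes tested rose. Sel1l and Herpud1 lie on the lower side.

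PD-1 blockade was compared with the control antibody. In aPD-1 cultures 5 of 10 members of the HSP70 and HSP90 systems, 2 of 5 lectin chaperones and glycan enzymes and 5 of 7 isomerases rose, and the rest of these groups did not pass. The largest rise was that of the lectin chaperone Calr (calreticulin), at about double its IgG level, while the sensors Ern1 and Atf6 and the degradation factor Herpud1 were well below theirs. Of the 35 members 15 rose at an adjusted p under 0.05 (DESeq2, adjusted over all genes of the authors' deposited table), where 8.5% of the 12024 genes tested rose. A further 4 members fell, where 10.0% of all genes fell, and 16 did not pass. The median log2 fold change was 0.36 over the members and 0.01 over all genes tested, in the authors' deposited table.

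The HSP70 and HSP90 systems of the ER had 5 of 10 members higher and 0 lower. Hspa5 had implied levels of 7809 in aPD-1 and 5618 in IgG cultures, and its log2 fold change in the authors' deposited table was 0.48 ± 0.13 (adjusted p = 0.0038). Hsp90b1 (GRP94), the HSP90 of the ER, had implied levels of 15199 in aPD-1 and 10086 in IgG cultures, at 0.59 ± 0.15 (adjusted p = 0.00059, authors' deposited table). Both abundant chaperones were thus higher with the PD-1 antibody by more than 3 SE. Small co-factors rose with them: Sdf2l1, a partner of ER J-domain proteins, had implied levels of 166 in aPD-1 and 93.1 in IgG cultures, a change of 0.83 ± 0.21 (adjusted p = 0.00072) in the authors' deposited table. Manf, a secreted protein that binds Hspa5, rose by 0.67 ± 0.17 and Creld2, an ER-stress-induced isomerase-like protein, rose by 0.73 ± 0.26 in the authors' deposited table. The J-domain proteins of this group did not pass: the authors' deposited table has Dnajb9 (ERdj4) at 0.02 ± 0.23, Dnajb11 (ERdj3) at 0.36 ± 0.19 and Dnajc3 (p58IPK) at 0.31 ± 0.20. Dnajc10 (ERdj5), which is grouped with the isomerases below, did pass. The nucleotide exchange factors of Hspa5 did not pass either, with Hyou1 at 0.20 ± 0.14 and Sil1 at 0.53 ± 0.27 in the authors' deposited table. All 10 members of this group had a positive log2 fold change.

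Among the lectin chaperones and glycan enzymes 2 of 5 rose and 0 fell. Calr had implied levels of 5359 in aPD-1 and 2608 in IgG cultures, and its log2 fold change of 1.04 ± 0.12 was the largest of the 35 members in the authors' deposited table (adjusted p = 2.2e-15). Its membrane-bound relative Canx (calnexin) had implied levels of 12958 in aPD-1 and 11612 in IgG cultures and did not pass, at 0.16 ± 0.14 (95% interval -0.11 to 0.43) in the authors' deposited table. The 2 lectins, which share clients, thus differed in size of change, and the difference between them was not tested. Edem1, which marks misfolded glycoproteins for degradation, rose by 0.62 ± 0.16 (adjusted p = 0.0011) in the authors' deposited table. By the authors' deposited table, neither the folding sensor Uggt1 at -0.03 ± 0.14 nor the degradation lectin Os9 at 0.29 ± 0.19 passed.

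The isomerases had 5 of 7 members higher and 0 lower. P4hb, the classical protein disulfide isomerase and also a subunit of collagen prolyl 4-hydroxylase, had implied levels of 1932 in aPD-1 and 1146 in IgG cultures, at 0.75 ± 0.13 (adjusted p = 2.4e-07, authors' deposited table). Pdia4 had implied levels of 910 in aPD-1 and 539 in IgG cultures, at 0.76 ± 0.14 (adjusted p = 1.7e-06) in the authors' deposited table. Pdia3, the isomerase that works with Calr and Canx, had implied levels of 18568 in aPD-1 and 11749 in IgG cultures, at 0.66 ± 0.15 (adjusted p = 0.00027, authors' deposited table). These 3 enzymes rose by nearly the same factor. Pdia6 rose by 0.52 ± 0.13 in the authors' deposited table, and the reductase Dnajc10 (ERdj5), at 0.42 ± 0.16, was the member nearest the threshold among those that passed (adjusted p = 0.041). Nearest on the other side was Pdia5 at 0.33 ± 0.15 (adjusted p = 0.14), and the prolyl isomerase Ppib was at 0.23 ± 0.14 in the authors' deposited table.

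Sensors moved apart. Ern1 had implied levels of 407 in aPD-1 and 760 in IgG cultures and fell by 0.90 ± 0.15 in log2 (adjusted p = 1.8e-07), as the authors' deposited table gives it. Atf6 had implied levels of 233 in aPD-1 and 446 in IgG cultures and fell by 0.93 ± 0.16 (adjusted p = 3.0e-07, authors' deposited table). Eif2ak3 was higher, with implied levels of 123 in aPD-1 and 75.0 in IgG cultures and a change of 0.72 ± 0.22 (adjusted p = 0.0074) in the authors' deposited table. Xbp1, the transcript that Ern1 splices, rose by 0.88 ± 0.20 (adjusted p = 0.00017), with implied levels of 181 in aPD-1 and 98.5 in IgG cultures in the authors' deposited table. Counts per gene do not tell the spliced from the unspliced Xbp1 mRNA, nor do mRNA levels measure the activity of the sensors.

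Degradation genes were mixed, with 1 of 5 higher and 2 lower. Syvn1 (HRD1), the ubiquitin ligase of this route, had implied levels of 2922 in aPD-1 and 2043 in IgG cultures and rose by 0.52 ± 0.15 (adjusted p = 0.0039) in the authors' deposited table. Sel1l, the adaptor that holds Syvn1 in its complex, fell by 0.48 ± 0.15 (adjusted p = 0.013), with implied levels of 260 in aPD-1 and 363 in IgG cultures, in the authors' deposited table. The ligase and its adaptor thus moved in opposite directions. Herpud1, a membrane protein that recruits this complex, had implied levels of 653 in aPD-1 and 1174 in IgG cultures and fell by 0.85 ± 0.18 (adjusted p = 7.0e-05) in the authors' deposited table. By the authors' deposited table, the channel-forming Derl1 at -0.10 ± 0.15 and Derl2 at 0.24 ± 0.18 missed the threshold. None of the 4 translocon genes passed: the authors' deposited table has the pore subunits Sec61a1 at 0.11 ± 0.13 and Sec61b at 0.43 ± 0.26, and the associated Ssr1 at -0.09 ± 0.15 and Ssr2 at 0.19 ± 0.16.

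**Figure D2:**
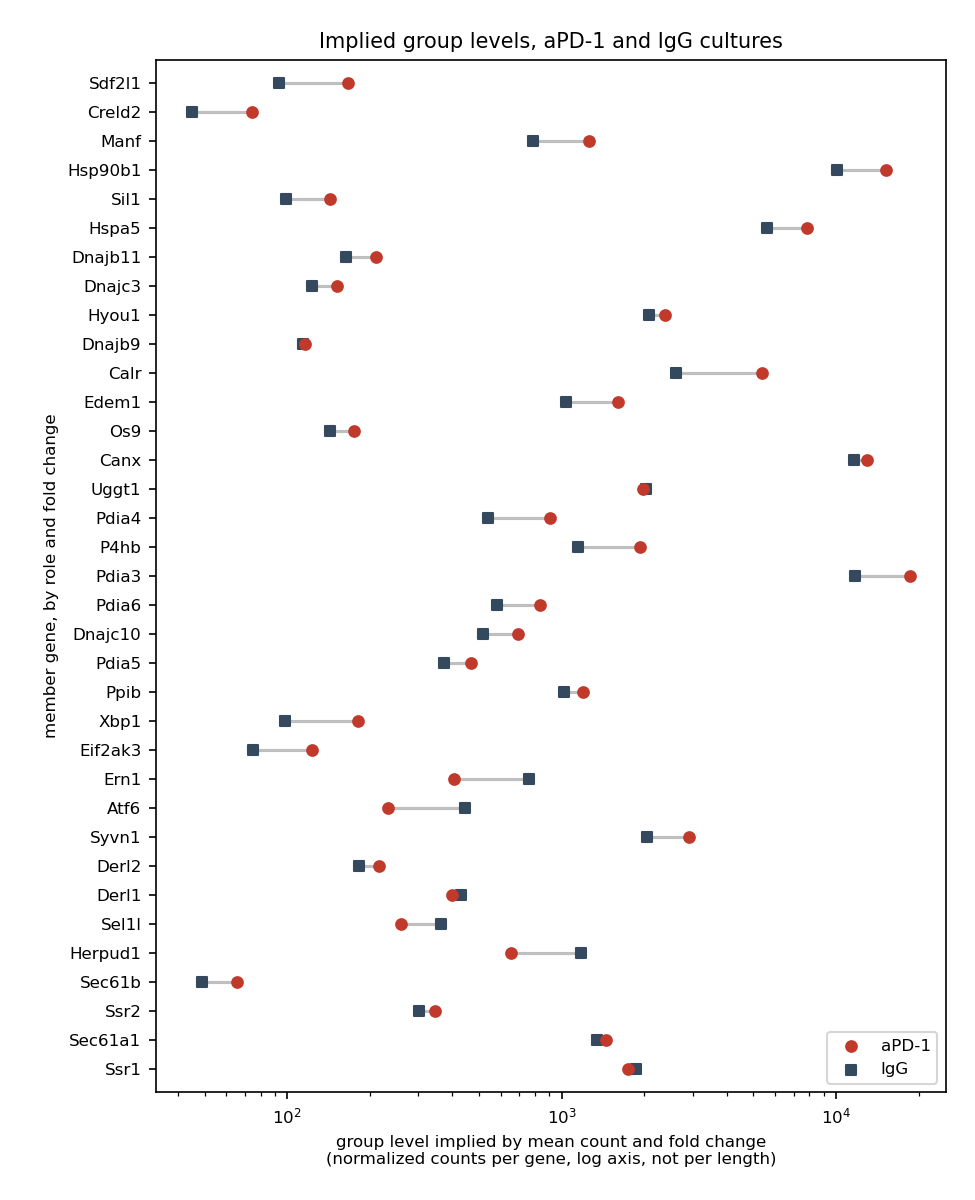
Implied level of each member in aPD-1 (circles) and IgG (squares) cultures, in normalized counts per gene on a log x axis, ordered by role and then by fold change; a grey line joins the pair of values of a gene. Circles lie right of squares for most chaperones and isomerases, and left of them for Ern1, Atf6, Sel1l and Herpud1.

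Set beside the promoters, 6 of the 8 members with an exact ER stress element rose and 0 fell. Of all 12024 genes tested, 8.5% rose and 10.0% fell. The median log2 fold change of the 8 members was 0.52, with a range of 0.16 to 1.04 in the authors' deposited table. The 2 that did not pass were Canx and Dnajc3. Of the 20 other members with a promoter at hand 8 rose and 3 fell, with a median of 0.34 and a range from -0.90 to 0.88 in the authors' deposited table. The difference between these sets was not tested, and genes outside the members that hold the element were not examined. The members were chosen with earlier results known, and a link between the element and the rise was not tested. Xbp1, Sdf2l1, P4hb, Edem1, Eif2ak3 and Dnajc10 rose without a match to any of the ER stress elements in this window.

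Genes of neighbouring pathways, from lists fixed with earlier results known, show how far the pattern reached in aPD-1 v IgG. Of 29 other ER folding factors tested 3 rose and 0 fell, with a median log2 fold change of 0.15: the prolyl isomerase Fkbp14 at 1.71 ± 0.38, the calcium-binding Rcn1 at 0.58 ± 0.14 and the sulfhydryl oxidase Qsox1 at 0.64 ± 0.22 in the authors' deposited table. Of 48 genes of translocation, glycosylation, degradation and ER export 4 rose and 0 fell, with a median of 0.14, among them Kdelr3, a receptor that returns escaped chaperones to the ER, at 1.12 ± 0.29, the oligosaccharyltransferase subunit Ostc at 0.66 ± 0.16 and the cargo receptor Surf4 at 0.44 ± 0.14 in the authors' deposited table. Both lists thus had a share of higher genes near the 8.5% of all genes. Of 11 genes that fold and modify collagen in the ER 7 rose and 1 fell, with a median of 0.60; the lysyl hydroxylase Plod2 was at 1.59 ± 0.17 and the prolyl hydroxylases Lepre1 at 0.93 ± 0.18, P4ha3 at 1.26 ± 0.32 and, lower, Leprel1 at -1.07 ± 0.40 in the authors' deposited table.

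Chaperones outside the ER were mostly lower or without a call, where 10.0% of all genes tested fell and 8.5% rose. Of 12 mitochondrial chaperones and proteases 6 fell and 0 rose, with a median of -0.47, led by the protease Lonp1 at -1.52 ± 0.15, the HSP70 Hspa9 at -1.32 ± 0.14 and the chaperonin Hspd1 at -1.08 ± 0.16 in the authors' deposited table. Of 30 cytosolic and nuclear chaperones tested 11 fell and 3 rose, with a median of -0.28; the chaperonin subunits Cct2 at -0.59 ± 0.14 and Cct4 at -0.50 ± 0.13 and the co-chaperone Stip1 at -0.47 ± 0.12 fell most clearly in the authors' deposited table. Those higher were Hspa2 at 0.56 ± 0.15, Bag3 at 0.43 ± 0.15 and Hspa1b at 0.48 ± 0.18 in the authors' deposited table, and Hspa1b is uncertain because it is nearly identical to Hspa1a. The HSP70 of the ER, Hspa5, was thus higher in aPD-1 cultures while that of mitochondria, Hspa9, was lower.

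A further list held other factors of the response, the Atf4 arm, and the kinases Eif2ak1, Eif2ak2 and Eif2ak4, which are not specific to the ER. Of its 27 genes tested 11 fell, 5 rose and 11 did not pass, where 10.0% of all genes fell and 8.5% rose. The median log2 fold change was -0.20 in the authors' deposited table. Eif2ak2, at -0.82 ± 0.23, was among those that fell. Atf4 was at -0.87 ± 0.14, with its known targets Asns, an asparagine synthetase, at -1.30 ± 0.16 and Trib3, a pseudokinase, at -1.79 ± 0.25, in the authors' deposited table. On the higher side the authors' deposited table has the transcription factors Cebpb at 1.72 ± 0.15, Nfe2l2 at 0.57 ± 0.15 and Creb3l2 at 0.76 ± 0.20. Atf4 and these targets thus had the opposite sign to Hspa5, Hsp90b1 and Calr.

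**Figure D3:**
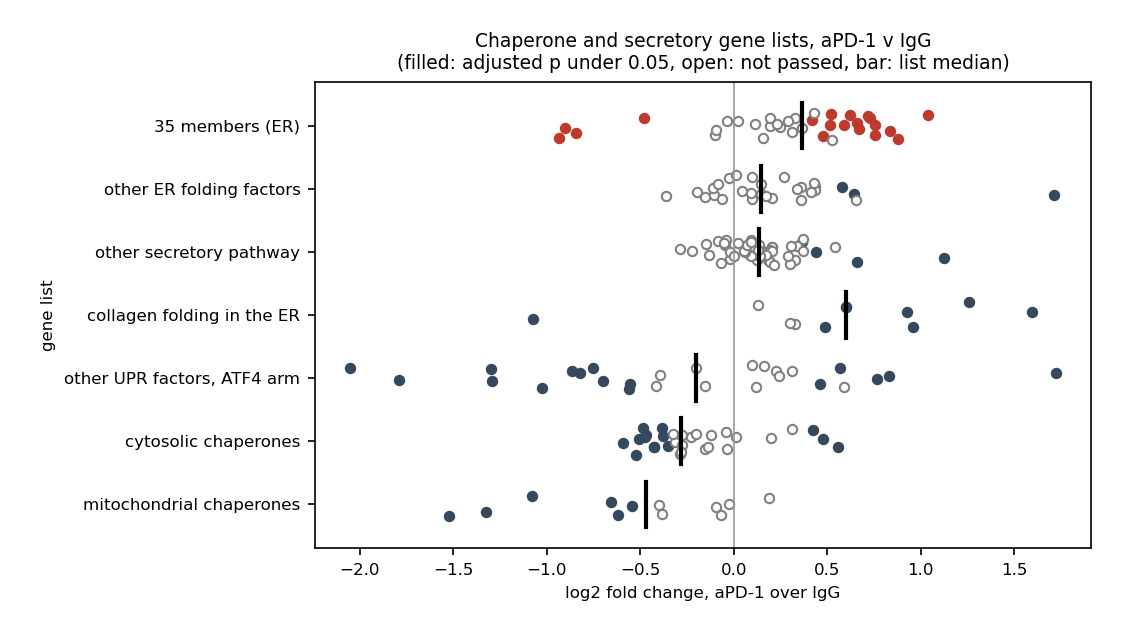
Log2 fold change of aPD-1 over IgG in the authors' deposited table (x axis) for the 35 members and 6 lists of neighbouring genes; each point is a gene with an adjusted p, filled where it was under 0.05, and the bar is the median of the list. Medians run from 0.60 for collagen folding genes and 0.36 for the members to -0.47 for mitochondrial chaperones.

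Some markers of fibroblasts moved with the chaperones. Of the 8 fibroblast markers 7 were listed, 6 had an adjusted p, and 4 of these rose and 0 fell; the 7 summed to an implied level of 9442 in aPD-1 and 3310 in IgG cultures. The authors' deposited table has Col3a1 at 2.42 ± 0.19, whereas Pdgfrb, singled out after its value was seen, missed the threshold at -0.28 ± 0.21. Col1a2 also missed it, at 0.24 ± 0.42, and Lum had no adjusted p. The part of the fibroblast markers in the result was not tested. In these bulk samples fewer cells of a type and less RNA per cell cannot be told apart. The markers of plasma cells, known for a very high content of ER chaperones, differed among themselves. Mzb1 had a mean count of 0.127, near 0, whereas Sdc1, a proteoglycan of plasma cells and of epithelial cells, had one of 767 and rose by 2.65 ± 0.15, in the authors' deposited table. Prdm1, a transcription factor of plasma cells and of other cells, had a mean count of 199 and did not pass, at -0.15 ± 0.26, in the authors' deposited table. Over the 5 listed markers of B and plasma cells the implied levels summed to 1513 in aPD-1 and 422 in IgG cultures, of which Sdc1 made up most. The 6 listed macrophage markers summed to 187 in aPD-1 and 194 in IgG cultures; 1 of them rose and 0 fell, Cd14 being at 1.08 ± 0.37 (adjusted p = 0.024) in the authors' deposited table. Of the 4 listed endothelial markers, which summed to 89.1 in aPD-1 and 33.1 in IgG cultures, Cdh5 alone was tested and rose, at 1.49 ± 0.28 (adjusted p = 2.4e-06) in the authors' deposited table. Cdh5 made up most of that sum: its mean count was 58.7, against 1.18 for Pecam1, 0.661 for Tek and 0.545 for Kdr. The part of these cell types in the result was not tested.

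Adding the CD8 antibody to the PD-1 antibody was next compared with the PD-1 antibody alone. With the CD8 antibody added, 4 of 10 members of the HSP70 and HSP90 systems, 2 of 5 lectin chaperones and glycan enzymes and 4 of 7 isomerases fell, and the rest of these groups did not pass. Atf6, Ern1 and Herpud1 rose. Of the 35 members 12 fell, where 6.94% of the 11560 genes tested fell in the authors' deposited table, and 3 rose, where 7.82% of all genes rose. This comparison shares the aPD-1 libraries with the one above, so the opposite signs are not a second, independent observation. The median log2 fold change was -0.41 over the members.

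Calr was again the member with the largest change, with implied levels of 2001 in aPD-1+CD8 and 4678 in aPD-1 cultures and a fall of 1.22 ± 0.15 (adjusted p = 6.1e-14) in the authors' deposited table. Hspa5 had implied levels of 4946 in aPD-1+CD8 and 6835 in aPD-1 cultures, at -0.47 ± 0.15 (adjusted p = 0.015) in the authors' deposited table. For Hsp90b1 the implied levels were 8690 in aPD-1+CD8 and 13213 in aPD-1 cultures, and its change of -0.60 ± 0.22 was the one closest to the threshold among those that passed (adjusted p = 0.041, authors' deposited table). These 3 chaperones stood lower with the CD8 antibody than without it, whereas Canx did not pass, at -0.18 ± 0.17 in the authors' deposited table.

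All 4 isomerases with a disulfide function that passed here fell: Pdia4 by 0.80 ± 0.16, Pdia3 by 0.76 ± 0.21, P4hb by 0.69 ± 0.15 and Pdia6 by 0.55 ± 0.16 in the authors' deposited table. The co-factors Manf at -0.78 ± 0.20 and Sdf2l1 at -0.65 ± 0.23 and the degradation genes Edem1 at -0.65 ± 0.18 and Syvn1 at -0.65 ± 0.17 also fell in the authors' deposited table. Of the 15 members higher in aPD-1 v IgG, the 3 that did not pass here were Eif2ak3 at -0.57 ± 0.24 (adjusted p = 0.095), Creld2 at -0.69 ± 0.29 (adjusted p = 0.093) and Dnajc10 at -0.36 ± 0.20 (adjusted p = 0.25), in the authors' deposited table. Xbp1 fell by 0.74 ± 0.25 (adjusted p = 0.029), with implied levels of 94.2 in aPD-1+CD8 and 157 in aPD-1 cultures, in the authors' deposited table.

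Atf6 had implied levels of 400 in aPD-1+CD8 and 206 in aPD-1 cultures, a rise of 0.96 ± 0.19 (adjusted p = 2.5e-05) in the authors' deposited table. Ern1 stood at 664 in aPD-1+CD8 and 358 in aPD-1 cultures, a rise of 0.89 ± 0.19 (adjusted p = 6.2e-05), and Herpud1 at 984 in aPD-1+CD8 and 572 in aPD-1 cultures, a rise of 0.78 ± 0.20 (adjusted p = 0.0014), in the authors' deposited table. Sel1l did not pass, at 0.31 ± 0.18. The fibroblast markers summed to 2938 in aPD-1+CD8 and 7947 in aPD-1 cultures, with 3 of 6 tested lower and 0 higher. Cdh5, the only endothelial marker tested, fell by 1.42 ± 0.31 in the authors' deposited table. The part of the fibroblast and endothelial markers was not tested here either. The lists outside the ER had the reverse of their earlier signs, with 5 of 12 mitochondrial chaperones higher and 0 lower and 6 of 30 cytosolic chaperones higher and 1 lower in the authors' deposited table.

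Against IgG, the cultures with both antibodies showed no called change of these genes. By the authors' DESeq2 test 0 of 35 members passed, as did 0.0% of the 15304 genes tested in either direction, and 0 members and 57 genes of the whole table had an unadjusted p under 0.05. The smallest member p was 0.15, for Calr at -0.14 ± 0.10, and Hspa5 was at 0.01 ± 0.10, Atf6 at 0.03 ± 0.11, Ern1 at 0.01 ± 0.11, Eif2ak3 at 0.06 ± 0.11 and Xbp1 at 0.05 ± 0.11 in the authors' deposited table. The fold changes of this table look strongly pulled toward 0, since the largest SE of any of its genes was 0.110 against 0.416 in aPD-1 v IgG. A p that misses the threshold does not show that the members stood at the same level in both groups.

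Interferon-gamma was compared with IgG. It left nearly all of these genes without a call: 1 member rose, where 2.73% of the 11478 genes tested rose, and 1 fell, where 1.38% fell, in the authors' deposited table. Sdf2l1 was the one that rose, with implied levels of 150 in IFNg and 93.7 in IgG cultures and a change of 0.68 ± 0.22 (adjusted p = 0.040) in the authors' deposited table. Herpud1 fell by 0.54 ± 0.15 (adjusted p = 0.0098), with implied levels of 778 in IFNg and 1132 in IgG cultures, in the authors' deposited table. Both genes had the same sign in aPD-1 v IgG, a comparison that shares the IgG libraries.

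Hspa5 did not pass, with implied levels of 6505 in IFNg and 5438 in IgG cultures and a change of 0.26 ± 0.15 (95% interval -0.04 to 0.56) in the authors' deposited table. Atf6 was at -0.41 ± 0.16 (adjusted p = 0.15), Xbp1 at 0.27 ± 0.21, Ern1 at 0.04 ± 0.17 and Eif2ak3 at -0.03 ± 0.22 in the authors' deposited table. Calr, part of the machinery that loads peptides on MHC class I, was at 0.11 ± 0.13 with an adjusted p of 0.87, and its partner Pdia3 at 0.11 ± 0.16 (adjusted p = 0.92), in the authors' deposited table. The median was 0.06 over the members and 0.01 over all genes tested. Fibroblast markers summed to 2857 in IFNg and 2961 in IgG cultures, with 1 of 6 tested higher and 2 lower.

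The direct comparison of IFNg with aPD-1 tests whether the members differed between these treatments. It shares the aPD-1 libraries with aPD-1 v IgG, so its calls are not a second, independent observation of those changes. Of the 35 members 7 were lower in IFNg cultures, where 7.13% of the 12260 genes tested were lower in the authors' deposited table, and 1 was higher, where 8.39% of all genes were. Calr had implied levels of 2659 in IFNg and 5079 in aPD-1 cultures, at -0.93 ± 0.15 (adjusted p = 5.8e-08) in the authors' deposited table. Ern1 was the member that was higher, with implied levels of 737 in IFNg and 386 in aPD-1 cultures, at 0.93 ± 0.19 (adjusted p = 2.4e-05) in the authors' deposited table. Calr and Ern1 thus differed between the treatments by close to a factor of 2, in opposite directions.

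Others lower with IFNg were Edem1 at -0.77 ± 0.19, Eif2ak3 at -0.77 ± 0.25, Hsp90b1 at -0.68 ± 0.19, P4hb at -0.67 ± 0.16, Pdia4 at -0.64 ± 0.17 and Dnajc10 at -0.63 ± 0.23 in the authors' deposited table. Pdia3 just missed the threshold, at -0.55 ± 0.21 (adjusted p = 0.055), as did Xbp1 at -0.59 ± 0.23 (adjusted p = 0.066) and Atf6 at 0.49 ± 0.20 (adjusted p = 0.075), in the authors' deposited table. For Hspa5 no difference was detected, at -0.21 ± 0.18 (95% interval -0.56 to 0.13) in the authors' deposited table, and for Sdf2l1 the value was -0.06 ± 0.25. The best known gene of this response, Hspa5, thus passed in aPD-1 v IgG but was not shown to differ between aPD-1 and IFNg cultures. Fibroblast markers summed to 2836 in IFNg and 9044 in aPD-1 cultures, with 4 of 6 tested lower and 0 higher.

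**Figure D4:**
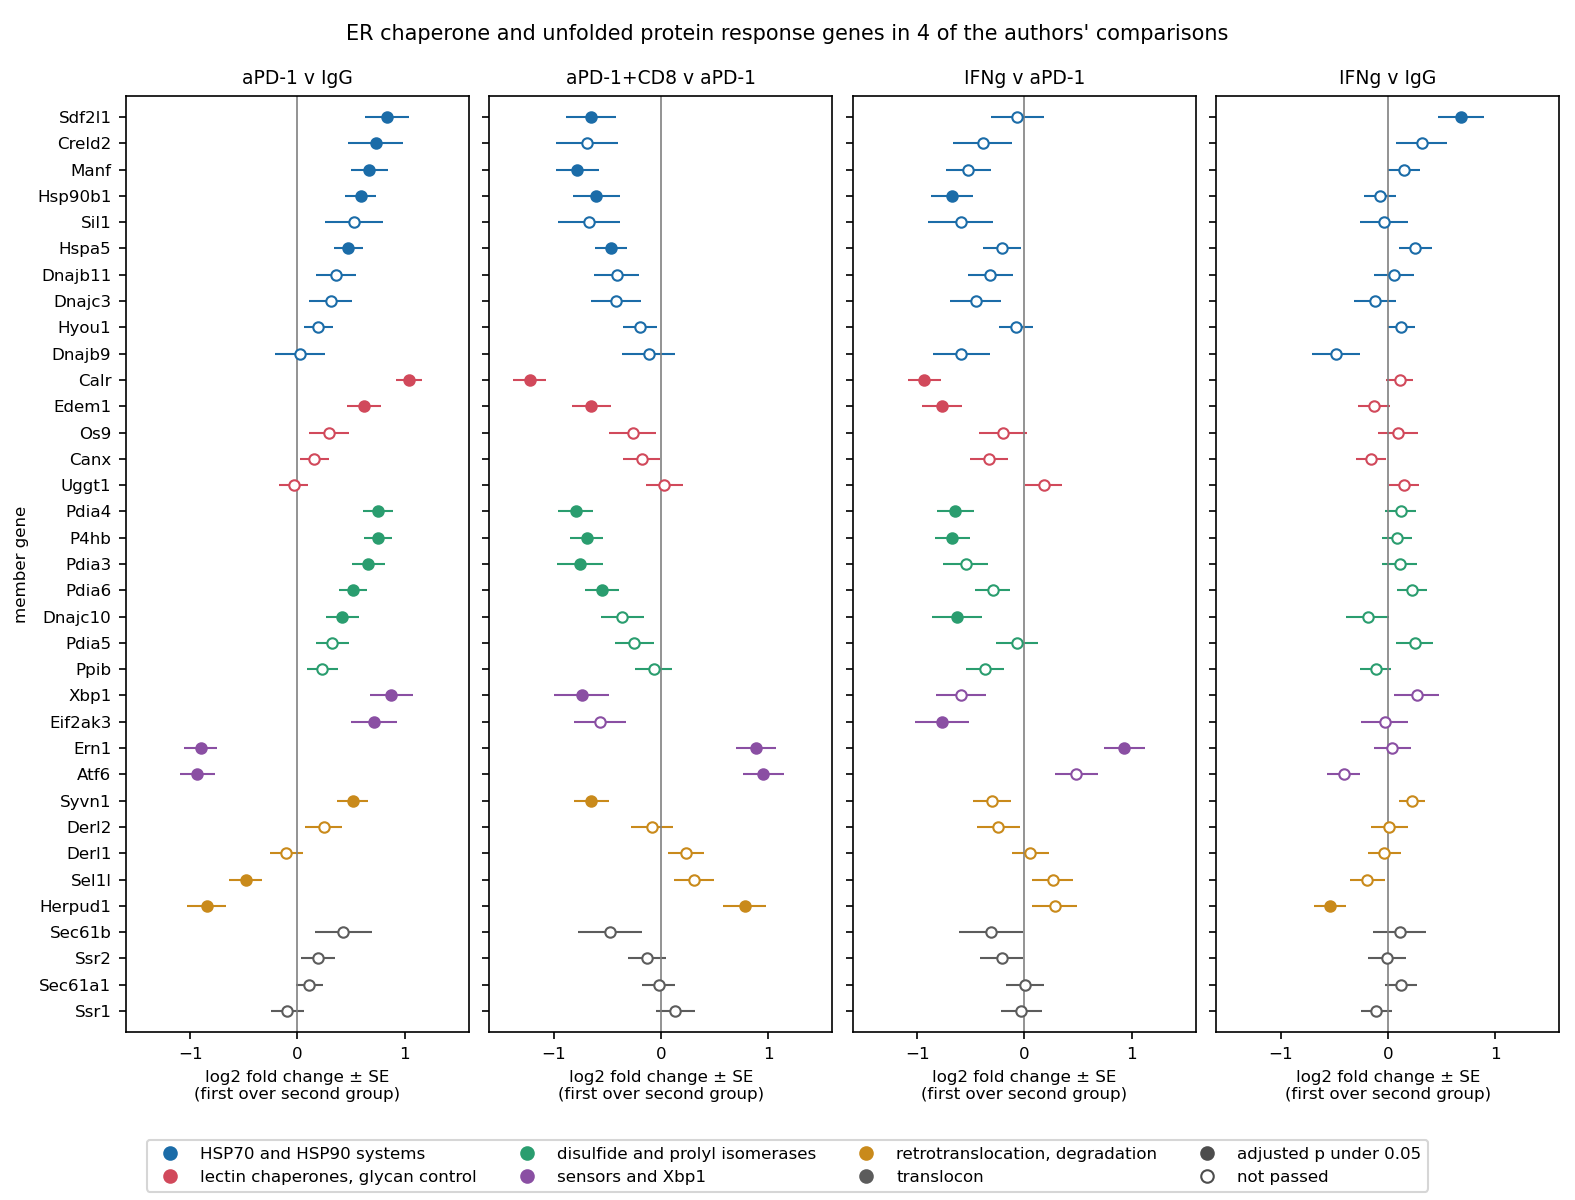
Log2 fold change ± SE (x axis) of each of the 35 members, grouped by role and coloured accordingly, in 4 of the 5 comparisons of the authors' deposited tables; filled points had an adjusted p under 0.05. Calr is filled on the higher side in aPD-1 v IgG and on the lower side in both comparisons against aPD-1, while in IFNg v IgG only Sdf2l1 and Herpud1 are filled.

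Across the 5 comparisons, members differed in how often they were called. Calr, Hsp90b1, Pdia4, P4hb, Edem1 and Ern1 passed in all 3 comparisons that involve the aPD-1 cultures. These comparisons share the aPD-1 libraries, so repeated calls of a member are not independent observations. Herpud1 and Sdf2l1 passed in IFNg v IgG as well as in aPD-1 v IgG and in aPD-1+CD8 v aPD-1. No member of the translocon group passed in any comparison, nor did Canx, Uggt1, Os9, Hyou1, Ppib, Pdia5, Sil1, Derl1, Derl2 or the J-domain proteins Dnajb9, Dnajb11 and Dnajc3.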

How the data were processed

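Expression was measured in 12 samples by exome-capture RNA-seq from 250 ng of total RNA, per the labels' protocols. The authors deposited 5 DESeq2 comparison tables on build mm9, per the submitters' processing notes; the aligner, the counter, the DESeq2 version and any use of strand were not given in the sources used here. Each of the tables gives per gene, per the file headers, the mean normalized count (a signal averaged by the authors over both groups), the log2 fold change with its SE, a Wald score, and p-values before and after adjustment. The deposited fold changes appear shrunken toward 0, which understates sizes, to an extent that differs between tables. The tables hold 0 columns of single samples, so mean counts are the only measure of depth; models could not be refitted.

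Genes were called changed at an adjusted p under 0.05 from the authors' test across all genes. Group levels were implied from mean count and fold change assuming equal group sizes. Adjusted p-values were recomputed by the Benjamini-Hochberg method with a largest gap of 3.9e-15, and the functions were tested on simulated data. The members, gene lists and motifs were chosen with earlier results of these data known; the motifs other than the ER stress element were added after the promoters were read. Named with full values were up to 6 members with the smallest p in each direction in aPD-1 v IgG, the sensors, Xbp1 and Hspa5, plus exceptions within a role; from each list, up to 3 genes a direction. The alternatives were a stricter threshold, a minimum fold change, another adjustment, an empirical null, centring on the median gene, and group levels solved from the mean counts of all tables. Promoters are from RefSeq (GRCm38.p6) and matched by symbol. Python 3.11.15, pandas 2.3.3, numpy 2.4.6 and scipy 1.17.1 were used.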

Additional observations from a re-analysis of the deposited data

How the results depend on the processing

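The number of members called in aPD-1 v IgG was 19, and it was between 13 and 19 at an adjusted p under 0.01, with adjustment over genes whose mean count reached 10, against an empirical null and after centring on the median gene. A log2 fold change of at least 1 in size left 1 member in aPD-1 v IgG (Calr), 1 of 15 in aPD-1+CD8 v aPD-1, 0 of 2 in IFNg v IgG and 0 of 8 in IFNg v aPD-1. An empirical null sets the width of the null to the spread of all Wald scores. Their robust SD was 1.31 in aPD-1 v IgG, 1.23 in aPD-1+CD8 v aPD-1 and 1.25 in IFNg v aPD-1, which widened the null. It was 0.98 in IFNg v IgG and 0.72 in aPD-1+CD8 v IgG, which narrowed it. The empirical null left 9 members in aPD-1+CD8 v aPD-1 and 5 in IFNg v aPD-1. At an adjusted p under 0.01, 1 member remained in IFNg v IgG. In aPD-1+CD8 v IgG the count was 0 under every alternative run.

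Centring moved fold changes most in aPD-1 v IgG, where the subtracted median log2 was -0.0143. It kept the call of all 70 member values computed, and the direction of those that were called changed. Log2 ratios of group levels solved from the mean counts turned no called direction, but 35 of 60 lay more than 1 SE from the deposited value and 25 within it. They were offset, with a median over 5704 genes of -0.42 in aPD-1+CD8 v IgG and -0.33 in aPD-1+CD8 v aPD-1. Centred on that median, an alternative chosen after seeing the data, 54 of 60 values lay within 1 SE of the deposited one; of the other 6, 5 were in aPD-1+CD8 v IgG, where Calr was at -0.44. No paired analysis was possible because the tables hold no columns of single samples, and leaving out a replicate was not run for the same reason.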
